A study of Homo sapiens with 2 samples.

Results

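The fibroblast growth factor (FGF) ligands, their receptors and the feedback regulators of the pathway were described in liver progenitors derived from CyT49, a line of human embryonic stem cells. The 47 genes were taken by symbol, and each had 1 row among the 57158 genes of the deposited table. They comprised 22 FGF genes, 5 receptor genes, 2 klotho coreceptors, 2 docking adaptors, 12 feedback inhibitors and 4 transcription factors that the pathway is known to induce. The series held 1 group of 2 poly(A) RNA libraries. Endoderm of day 2 had been cultured in suspension for 6 days in RPMI medium with 50 ng/ml BMP4, 10 ng/ml FGF2 and 0.2% fetal bovine serum (FBS). Collection was at day 8. No genetic change is named in the labels. With no culture lacking FGF2, BMP4 or serum, the levels cannot be tied to any of these additions. Whether the libraries stem from separate cultures is not stated.

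FGFs are signalling proteins, most of them secreted, that bind tyrosine kinase receptors together with heparan sulfate. The activated receptor signals through docking proteins to RAS and the kinase ERK, which raises transcription of ETV and EGR factors and of inhibitors that damp the same pathway. In the embryo, FGFs from the cardiac mesoderm help to induce liver fate in the neighbouring endoderm. In the adult, hormone-like FGFs act on the liver through klotho coreceptors.

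Levels are RPKM, read numbers divided by gene length and by library depth, which allows genes of unlike length to be set side by side. The lengths used for genes of several exons were not checked, so ratios between genes are approximate. Every value under 0.5 RPKM is listed as 0.1 in the table, and such a gene is called listed under 0.5. The spacing of values of single-exon genes corresponded to a depth of 25182350 reads in library 1 and 25263650 reads in library 2, so that 1 RPKM stood for 25.2 reads per kilobase in library 1. Over 896 single-exon genes the variance between the libraries was 1.06 times that of counting alone, and the libraries were therefore counted as 1 sample. The origin of their difference, technical or between cultures, is not known. Of 9 liver progenitor markers checked, all 9 stood at 10 RPKM or more, among them AFP at 707 and 705 RPKM. Of the defining factors of pluripotent cells, POU5F1, NANOG and SOX2 were listed under 0.5.

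To show control regions of some genes named below, 4 promoters are printed, those of EGR1, FGFR3, FGFR4 and KLB. The receptor genes FGFR1, FGFR2 and FGFRL1 are not shown. Each runs from 250 bases before to 50 bases after a RefSeq transcript start, 5′ to 3′ on the gene's strand. Build GRCh38.p14 applies to these sequences only, and gene positions elsewhere are GRCh37 (hg19). Promoter entries were matched for 35 of the 47 genes. Capitals mark the 1 motif searched for in each. In EGR1 this is the CArG box, the binding motif of serum response factor. In FGFR3 and FGFR4 it is the GC box GGGCGG, and in KLB it is the forkhead motif TGTTTAC, all searched on both strands. The windows are chr5:138465229-138465528 (plus strand) for EGR1, chr4:1793043-1793342 (plus) for FGFR3, chr5:177086665-177086964 (plus) for FGFR4 and chr4:39406680-39406979 (plus) for KLB. FGFR4 has 2 starts in the table, and the upstream one is shown.
EGR1: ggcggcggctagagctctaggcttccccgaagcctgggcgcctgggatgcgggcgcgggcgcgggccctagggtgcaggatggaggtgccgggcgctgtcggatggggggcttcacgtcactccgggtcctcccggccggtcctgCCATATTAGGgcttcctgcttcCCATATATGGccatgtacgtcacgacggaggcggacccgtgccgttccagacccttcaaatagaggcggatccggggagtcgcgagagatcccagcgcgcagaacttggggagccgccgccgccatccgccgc
FGFR3: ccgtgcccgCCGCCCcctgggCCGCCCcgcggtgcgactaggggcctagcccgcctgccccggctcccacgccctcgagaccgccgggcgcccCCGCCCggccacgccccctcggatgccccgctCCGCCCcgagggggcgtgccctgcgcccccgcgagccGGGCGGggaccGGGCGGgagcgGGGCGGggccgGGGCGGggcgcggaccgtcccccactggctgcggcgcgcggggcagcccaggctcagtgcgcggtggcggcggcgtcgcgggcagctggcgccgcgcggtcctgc
FGFR4: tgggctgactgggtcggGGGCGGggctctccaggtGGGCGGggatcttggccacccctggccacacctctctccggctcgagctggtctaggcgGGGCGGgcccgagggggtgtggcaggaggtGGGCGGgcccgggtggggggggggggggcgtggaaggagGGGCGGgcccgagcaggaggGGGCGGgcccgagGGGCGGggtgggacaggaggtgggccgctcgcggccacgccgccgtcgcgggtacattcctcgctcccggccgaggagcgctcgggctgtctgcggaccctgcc
KLB: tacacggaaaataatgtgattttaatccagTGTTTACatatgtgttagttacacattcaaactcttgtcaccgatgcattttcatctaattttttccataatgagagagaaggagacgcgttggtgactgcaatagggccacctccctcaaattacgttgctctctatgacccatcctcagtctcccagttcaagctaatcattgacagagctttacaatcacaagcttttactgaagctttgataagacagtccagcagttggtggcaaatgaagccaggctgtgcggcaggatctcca

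The EGR1 window held 2 CArG boxes, a motif present in 1.29% of 35116 promoter windows of the same length. FGFR3 had 8 GC boxes, 4 on each strand, and FGFR4 had 7, all on the gene's strand. The GC box is common, at 45.0% of windows, and the FGFR3 and FGFR4 windows were 86.3% and 78.7% G or C. KLB differed, with 42.3% G or C and no GC box, and carried 1 forkhead motif, which 3.42% of windows hold. These windows were chosen after the levels were seen, and the same motifs occurred at genes of low level. The second FGFR4 start had no GC box, and among genes listed under 0.5 RPKM, FGF22 had 6, KL had 5 and FGF3 had a CArG box. FGF10, at 0.870 and 0.801 RPKM, had the forkhead motif as well. A match of letters does not show that a factor was bound.

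Receptors were abundant and secreted ligands were not. At 1 RPKM or more in both libraries stood 23 of the 47 genes (48.9%), beside 59.8% of 19344 protein-coding genes. The genes split by role. None of 18 secreted and endocrine ligand genes reached 1 RPKM, whereas 6 of 7 receptor and coreceptor genes, 10 of 12 feedback inhibitors and 3 of 4 transcription factors did. At 10 RPKM or more stood 8 of the 47, beside 20.2% of protein-coding genes, and 6 of those 8 were receptors or KLB. Under 0.5 RPKM in both libraries were 23 of the 47, beside 33.8% of protein-coding genes, and 17 of these were secreted or endocrine ligands. The median of the 47 was 0.836 RPKM, beside 2.42 RPKM for protein-coding genes, and it was the level of FGF10, the gene in the middle of the order. On the log2(RPKM + 1) scale the mean level was 1.71 for the 47 and 1.96 for protein-coding genes. In bulk RNA, fewer cells that express a gene and less RNA per cell cannot be told apart.

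**Figure D1:**
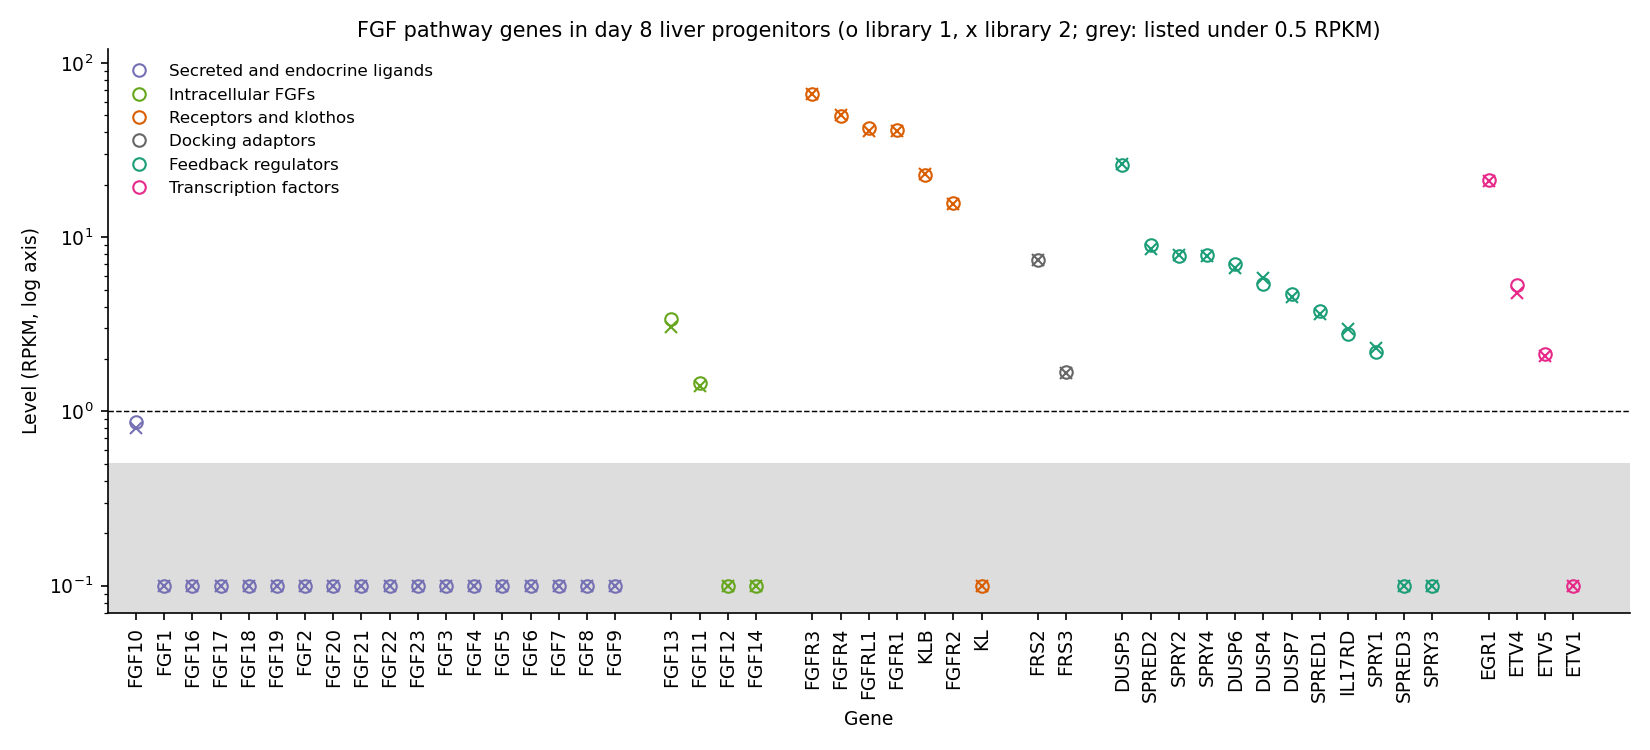
Level of each gene in RPKM on a log axis, by role, with a circle for library 1 and a cross for library 2; the grey band holds genes listed under 0.5 RPKM and the dashed line is 1 RPKM. The receptors and KLB lie between 15.6 and 66.6 RPKM, while FGF10 is the one ligand of the secreted and endocrine group above the band.

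FGF10 was the single secreted ligand above the limit of the table. This mesenchymal ligand of FGFR2, a gene on chromosome 5 from 44300349 to 44389808, had 0.870 RPKM in library 1 and 0.801 in library 2. Both values lay below 1 RPKM. The other 14 secreted ligand genes, namely FGF1, FGF2, FGF3, FGF4, FGF5, FGF6, FGF7, FGF8, FGF9, FGF16, FGF17, FGF18, FGF20 and FGF22, were listed under 0.5 in both libraries. FGF2 is the factor that had been added to the culture as protein. Its own transcript was under the limit, and NUDT6, the gene on the opposite strand that overlaps it, stood at 0.775 and 0.704 RPKM. FGF4, a ligand made by pluripotent stem cells, and FGF8, a ligand of gastrulating and early organ-forming embryos, were also under it. FGF7, which like FGF10 signals from mesenchyme to epithelium, has 6 annotated pseudogene copies in the table, of which 1, FGF7P3, was above the limit, and only in library 2 at 0.528 RPKM.

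The 3 endocrine ligand genes were listed under 0.5 in both libraries. They were FGF19, an intestinal hormone that lowers bile acid synthesis in the liver, FGF21, a hormone made by the liver itself, and FGF23, a bone hormone that controls phosphate. A gene under the limit may still be transcribed. On the canonical transcripts of the 23 genes under it, 0.5 RPKM stood for about 11.9 reads (FGF6) to 165 reads (FGF14) in library 1, with a median of 39.9. For FGF19 it stood for about 22.9 reads and for FGF21 about 17.0. Levels below the limit cannot be read from the table, which lists every value under 0.5 as 0.1. The transcript lengths are those of GENCODE release 44, so these read numbers are approximate.

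The intracellular FGFs, also called FGF homologous factors, are not secreted and are best known for binding voltage-gated sodium channels. FGF13 had 3.40 RPKM in library 1 and 3.05 in library 2, the highest of all 22 FGF genes, and FGF11 had 1.46 and 1.40. FGF12 and FGF14 were listed under 0.5. The only FGF genes at 1 RPKM or more were thus these 2 of the intracellular kind, and none of the 22 reached 5 RPKM. A noncoding gene on the same strand within FGF11 (ENSG00000262880.1) stood at 2.86 and 2.53 RPKM, above FGF11 itself, so the FGF11 level is uncertain.

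Each of the 4 receptor genes with a kinase domain was at 10 RPKM or more, beside 20.2% of protein-coding genes. FGFR3 led with 66.3 RPKM in library 1 and 66.6 in library 2, rank 427 among 19344 protein-coding genes. The gene is ENSG00000068078.13, on chromosome 4 from 1795020 to 1810599. FGFR4, the receptor that predominates in adult hepatocytes, had 49.4 and 50.1 RPKM (rank 605) and is ENSG00000160867.10, on chromosome 5 from 176513906 to 176525145. FGFR1 had 41.2 and 40.9 RPKM (rank 776), and FGFR2 had 15.6 in both (rank 2476). The 4 summed to 173 RPKM in each library. FGFR3 made up 38.4% of this sum in both libraries, FGFR4 28.6% and 28.9%, FGFR1 23.9% and 23.6%, and FGFR2 9.03% on the means. The order was the same in both libraries, and no receptor's values overlapped those of another of the 4. The libraries count as 1 sample, so this does not show that the order would recur in another culture. FGFR3 stood 1.33 times above FGFR4 and 4.26 times above FGFR2 on the ratio of means. Within FGFR1, the pseudogene RPS20P22 on the same strand had 2.05 RPKM in library 1 and 2.67 in library 2. The receptor values are sums over isoforms, so the epithelial and mesenchymal splice forms of FGFR1, FGFR2 and FGFR3, which bind different ligands, were not separated.

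**Figure D2:**
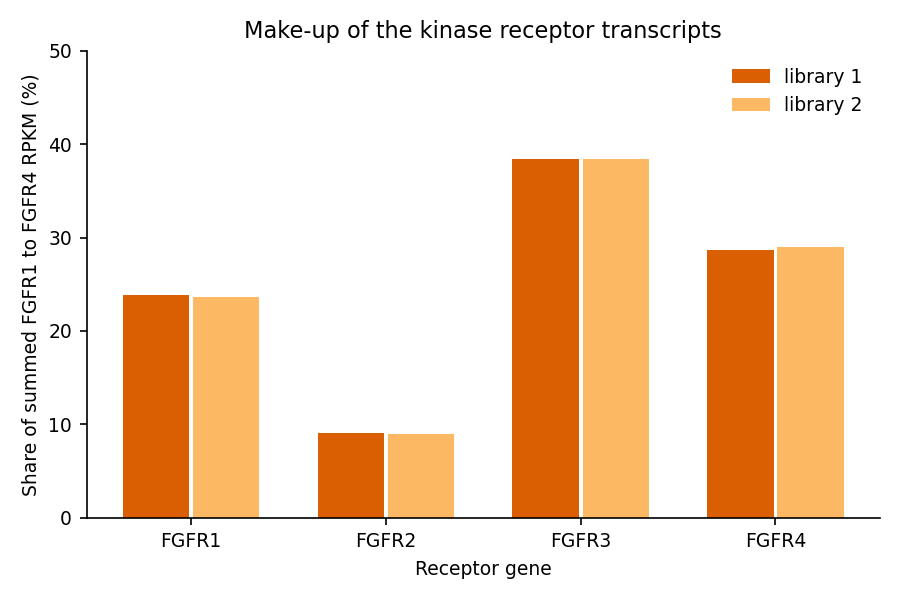
Share of the summed FGFR1 to FGFR4 RPKM taken by each receptor gene, in percent, with dark bars for library 1 and light bars for library 2. FGFR3 holds 38.4% in both libraries and FGFR2 9.03% on the means.

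FGFRL1, a receptor without the kinase domain that is held to act as a decoy, had 42.2 RPKM in library 1 and 40.6 in library 2. Its values overlapped those of FGFR1, and these neighbours in the order did not differ beyond the libraries' difference. FGFRL1 lies 774 kb from FGFR3 on chromosome 4. Of the klotho coreceptors, KLB (beta-klotho), which FGF19 and FGF21 need to signal, had 22.8 and 23.0 RPKM. KLB is ENSG00000134962.6, on chromosome 4 from 39408550 to 39453153. KL (alpha-klotho), the coreceptor for FGF23, was listed under 0.5. FGFR4 stood 2.17 times above KLB. Both parts of the FGF19 receptor were thus present as transcripts, while the hormone's own transcript was under the limit. Bulk RNA does not show whether the same cells held both.

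Of 7 genes fixed for the FGF19 bile acid axis, all 7 were listed under 0.5 in both libraries, beside 33.8% of protein-coding genes. They were CYP7A1 and CYP8B1, enzymes of bile acid synthesis that FGF19 is known to repress, the nuclear receptors NR0B2 and NR1H4, the bile acid transporters SLC10A1 and SLC10A2, and MALRD1. Around FGF19 on chromosome 11 (69513006 to 69518790), FGF4 at a distance of 67.0 kb and FGF3 at 106 kb were under the limit too. The neighbouring CCND1, the cyclin of the early cell cycle, had 29.4 and 28.1 RPKM, and LTO1, which overlaps the end of CCND1 on the opposite strand, had 1.78 and 1.73. Farther out, FADD stood at 12.5 and 13.4 RPKM, TPCN2 at 2.90 and 3.24, ANO1 at 0.827 and 0.990, and MYEOV under 0.5. At 2 other loci a ligand gene under the limit lay near a detected inhibitor gene. FGF2 lies 499 kb from SPRY1 on chromosome 4, and FGF1 lies 266 kb from SPRY4 on chromosome 5. FGF6 and FGF23, 48.4 kb apart on chromosome 12, were both under the limit.

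The docking adaptors link receptor to RAS. FRS2 had 7.42 RPKM in library 1 and 7.43 in library 2, and its relative FRS3 had 1.68 and 1.66. FRS2 stood 4.45 times above FRS3. A gene on the opposite strand that overlaps FRS3 (ENSG00000124593.10) had 10.5 and 10.7 RPKM. The libraries were made to keep strand, but whether the counting used strand is not stated, so the FRS3 level is uncertain.

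The feedback inhibitors were detected at low to moderate levels. Of the 12, 10 stood at 1 RPKM or more and 1 at 10 or more, beside 59.8% and 20.2% of protein-coding genes. Among the Sprouty proteins, inhibitors of RAS and ERK activation, SPRY2 had 7.83 and 7.96 RPKM and SPRY4 had 7.89 and 7.77. These values overlapped between the libraries, and SPRY2 and SPRY4 did not differ beyond that difference. SPRY1 was lower, with 2.20 and 2.33 RPKM, and SPRY3 was listed under 0.5, while TMLHE, which overlaps it on the opposite strand, had 3.41 and 3.17. SPRY2 stood 3.49 times above SPRY1. Among the related Spred proteins, SPRED2 had 9.05 and 8.59 RPKM, SPRED1 had 3.78 and 3.63, and SPRED3 was listed under 0.5. IL17RD, a membrane inhibitor of FGF receptor signalling also called SEF, had 2.80 and 2.96 RPKM.

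The ERK phosphatases were all 4 at 1 RPKM or more, beside 59.8% of protein-coding genes, and DUSP5 stood apart. DUSP5, a nuclear phosphatase for ERK on chromosome 10 from 112257665 to 112271291, had 26.1 RPKM in library 1 and 26.2 in library 2. DUSP6, the cytoplasmic ERK phosphatase most often used as a readout of FGF signalling, had 7.02 and 6.63. DUSP4, a second nuclear enzyme, had 5.38 and 5.86, and DUSP7, a second cytoplasmic one, had 4.70 and 4.53. DUSP5 thus stood 3.83 times above DUSP6, 4.66 times above DUSP4 and 5.67 times above DUSP7, and no values of the 4 genes overlapped. With the libraries counted as 1 sample, whether this order recurs in another culture was not tested. The 2 annotated DUSP5 pseudogenes and the 3 FGFR3 pseudogenes in the table were listed under 0.5.

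Of the transcription factors, EGR1, an immediate early gene that serum and growth factors induce within minutes, had 21.4 RPKM in library 1 and 20.9 in library 2. This gene is ENSG00000120738.7, on chromosome 5 from 137801168 to 137804992, and its promoter with the CArG boxes is printed above. The ETV factors of the PEA3 group were lower. ETV4 had 5.32 and 4.78 RPKM, ETV5 had 2.14 and 2.07, and ETV1 was listed under 0.5. EGR1 stood 4.19 times above ETV4, and ETV4 2.40 times above ETV5. DHX8, on the opposite strand and overlapping the annotated ETV4 gene, had 5.75 and 6.08 RPKM, so the ETV4 level is uncertain in the same way as that of FRS3. The 6 genes SPRY1, SPRY2, SPRY4, DUSP6, ETV4 and ETV5, widely used as readouts of FGF signalling and grouped here after their values were seen, stood between 2.07 and 7.96 RPKM, below DUSP5 and EGR1 in each library.

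**Figure D3:**
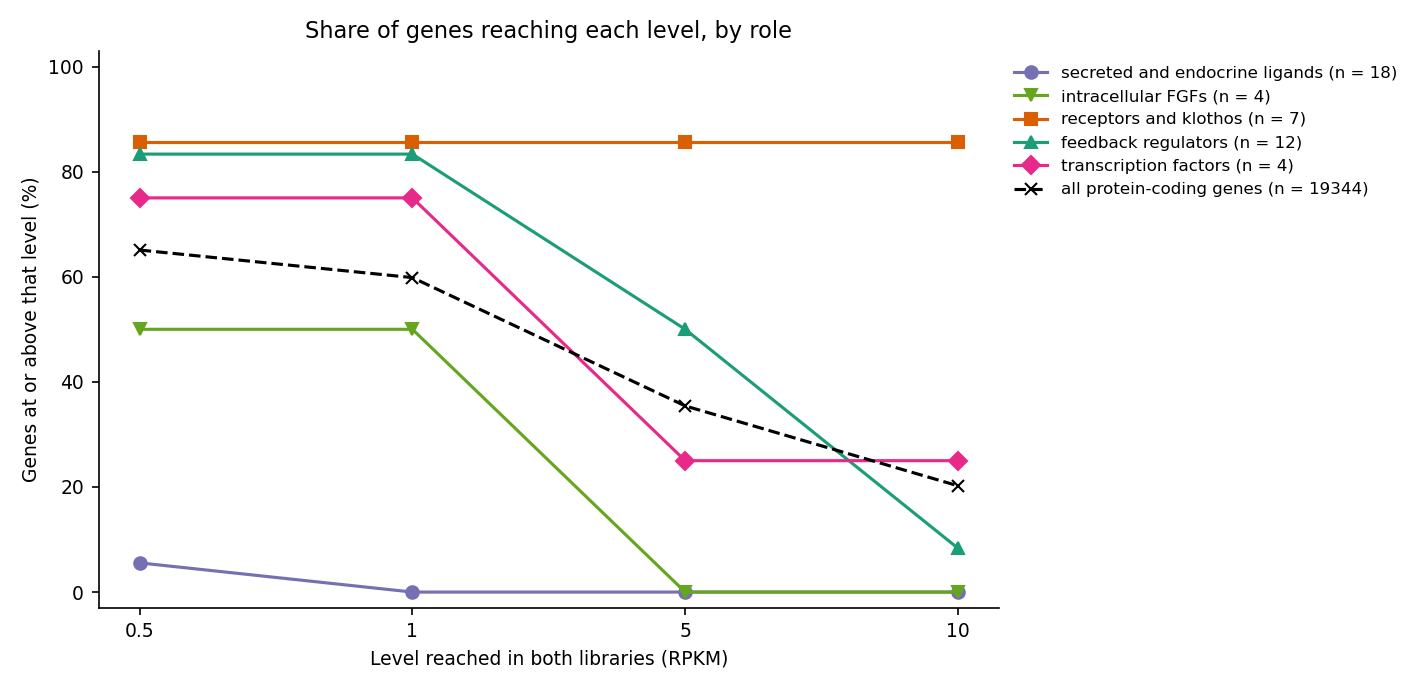
Percentage of genes of each role except the docking adaptors that reached 0.5, 1, 5 or 10 RPKM in both libraries, with all protein-coding genes as the dashed line. Receptors and klothos stay at 85.7% at every limit, while feedback regulators fall from 83.3% at 1 RPKM to 8.33% at 10 RPKM.

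Receptors headed the order of levels. Above 0.5 RPKM, 24 genes can be ranked. The first 8 were FGFR3, FGFR4, FGFRL1, FGFR1, DUSP5, KLB, EGR1 and FGFR2. Below them came the other feedback inhibitors above 0.5 RPKM, ETV4, ETV5, FRS2, FRS3, FGF13, FGF11 and, last, FGF10. Of the 23 pairs of neighbours in this order, 2 had overlapping values, FGFRL1 with FGFR1 and SPRY2 with SPRY4. For the other pairs, a lack of overlap between libraries counted as 1 sample does not measure the spread between cultures. At 5 RPKM or more stood 14 of the 47 genes, beside 35.4% of protein-coding genes. Across the 23 genes at 1 RPKM or more, the libraries differed by a median of 2.96% of the mean, beside 3.19% for protein-coding genes at that level. FGF13 differed most, by 10.8%, followed by ETV4 at 10.6%. By approximate read numbers from annotated transcripts, FGF13 was the 1 gene of the 23 (4.35%) whose difference passed 2 counting errors, beside 2.97% of protein-coding genes at that level, so the share is near the background. Its canonical transcript is annotated at 19575 bases, and a shorter one would lower that figure.

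**Figure D4:**
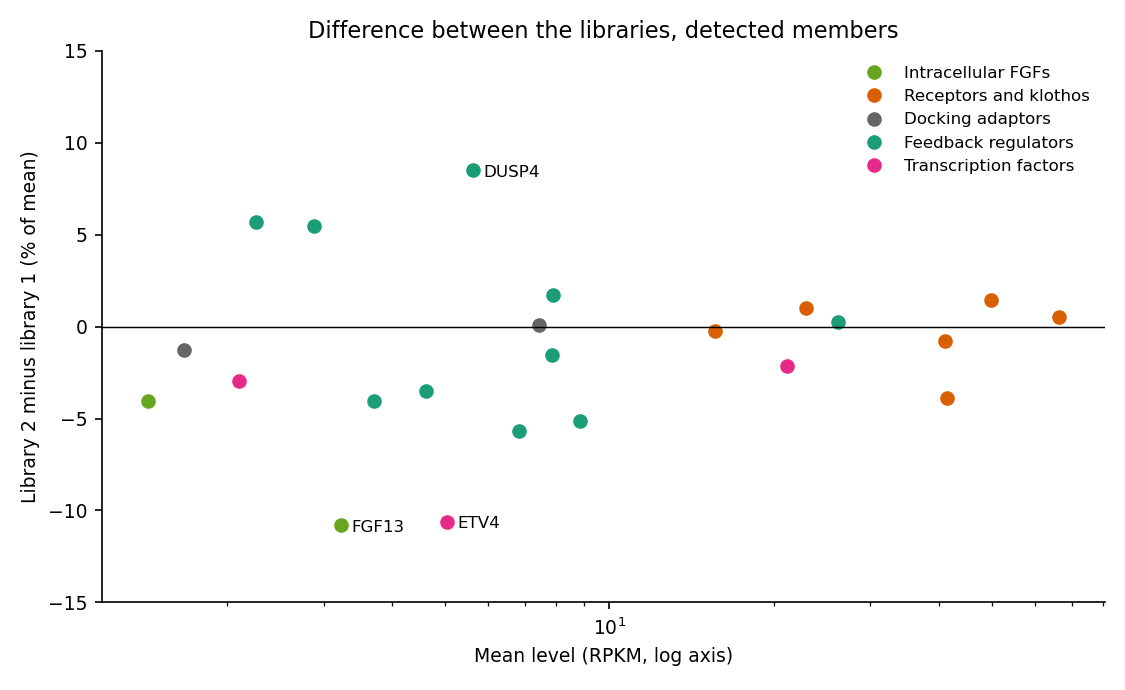
Difference between library 2 and library 1 as a percentage of the mean, against the mean level in RPKM on a log axis, for the 23 genes at 1 RPKM or more, coloured by role. FGF13 and ETV4 lie more than 10% lower in library 2, and the 4 kinase receptors lie within 1.45% of 0.

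Other genes of the pathway, together with the neighbours of the FGF3, FGF4 and FGF19 locus, were read from fixed lists. Of the 106 genes in these lists 76 (71.7%) reached 1 RPKM, beside 59.8% of protein-coding genes. In the relay from receptor to ERK 21 of 22 (95.5%) did, 12 of them at 10 RPKM or more beside 20.2% of protein-coding genes, with a median of 10.8 RPKM. PEBP1, an inhibitor of RAF kinase, was highest at 203 and 199 RPKM, followed by the adaptor SHC1 (50.8 and 48.8), the kinase MAP2K2 (28.4 and 29.3) and the adaptor GRB2 (19.8 and 20.1). The lowest were GAB1 at 2.61 and 2.62 RPKM, the scaffold KSR1 at 2.63 in both, and KSR2 under 0.5. Among 20 further early response and ERK target genes 16 (80.0%) reached 1 RPKM, with a median of 6.02 RPKM. CCND1 led, followed by SRF, the serum response factor that binds the CArG box, at 17.6 and 17.1 RPKM, the phosphatase DUSP1 at 16.5 and 16.4, and IER3 at 16.0 and 15.9. At the low end were EGR2, a relative of EGR1, at 0.701 and 0.591 RPKM, DUSP2 above 0.5 in library 1 only, and FOSL1 under 0.5 in both.

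Genes for heparan sulfate, the sugar chain that FGFs need to bind their receptors, were read as core proteins and as enzymes. Of 12 core protein genes 11 (91.7%) reached 1 RPKM, with a median of 15.8 RPKM. GPC3, the glypican of fetal liver, stood at 460 and 462 RPKM, AGRN at 81.4 in both, SDC4 at 64.7 and 63.1, and HSPG2 (perlecan) at 48.4 and 47.7. The lowest were GPC2 at a mean of 7.32, GPC4 at a mean of 2.02, and GPC5 under 0.5. Of 24 genes for synthesis and editing of the chain 15 (62.5%) reached 1 RPKM, close to the 59.8% of protein-coding genes. The highest were the sulfotransferase NDST1 at 28.0 and 27.4 RPKM, the sulfatase SULF2 at 25.1 and 25.2, HS6ST1 at 16.9 and 18.1, and the polymerase subunit EXT2 at 16.4 and 15.5. SULF2, which removes the 6-O-sulfates that FGF signalling uses, stood 1.43 times above HS6ST1, an enzyme that adds them. HS6ST2, another that adds them, had 4.89 and 4.50 RPKM. The SULF2 relative SULF1 and the heparanase HPSE were among 7 genes under 0.5, with NDST3, NDST4, HS6ST3, HS3ST2 and HS3ST6.

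Of 12 genes for proteins that bind FGFs or their receptors, 6 (50.0%) were at 1 RPKM or more, near the 59.8% of protein-coding genes. N-cadherin (CDH2), which can associate with FGFR1, stood at 71.6 and 70.9 RPKM, the FGF receptor partners FLRT3 at 68.8 and 69.3 and FLRT2 at 39.7 and 38.5, and FIBP at 10.8 and 11.4. FLRT1, NCAM1 and the ligand carrier FGFBP1 were under 0.5. All 4 listed regulators of FGF receptor splicing were above 1 RPKM. ESRP1, which favours the epithelial receptor forms, had 21.7 and 21.3 RPKM and ESRP2 had 9.42 and 10.4. PTBP1 had 66.8 and 68.4, and RBFOX2 21.8 and 21.4.

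**Figure D5:**
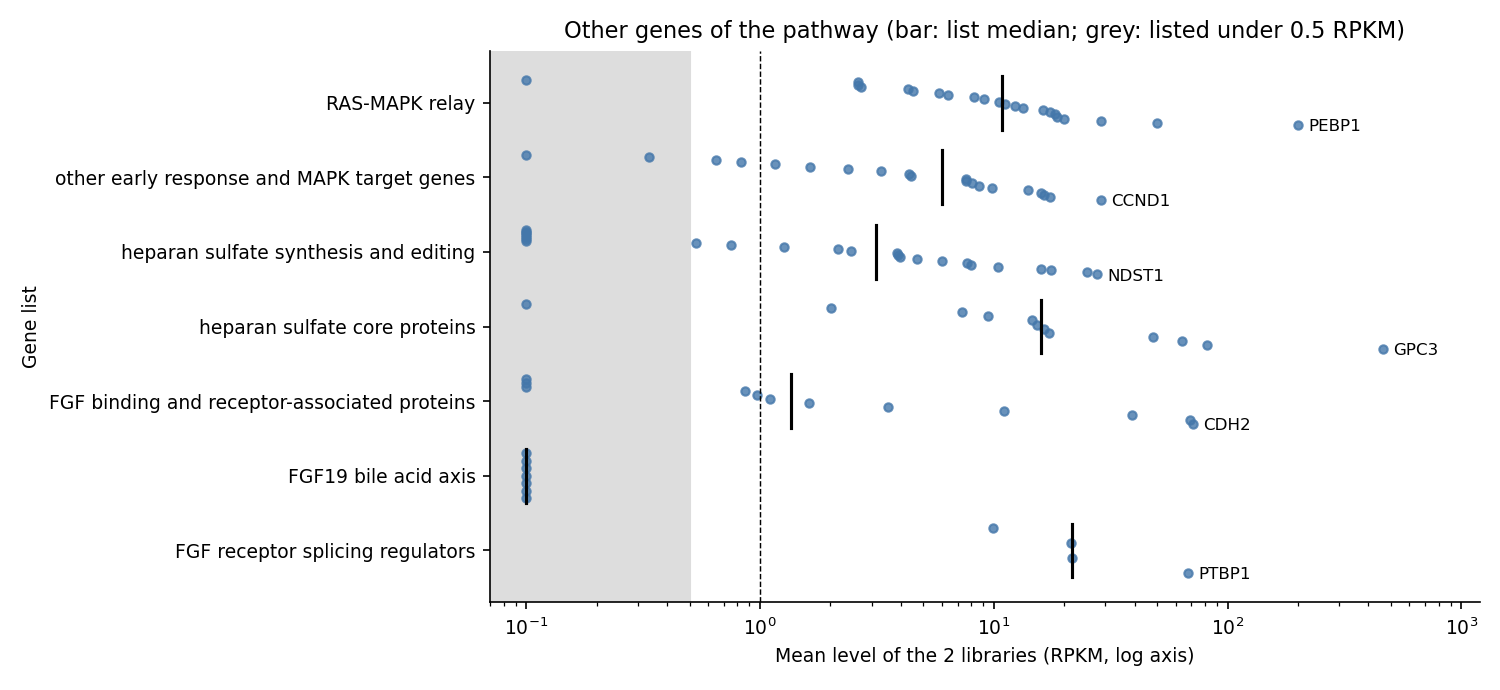
Mean level of each gene of 7 further pathway lists in RPKM on a log axis, 1 point per gene, with the list median as a bar and the grey band for values under 0.5 RPKM. The heparan sulfate core proteins reach 461 RPKM with GPC3, and all 7 genes of the FGF19 bile acid axis lie in the band.

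Markers of other cells that could supply or receive FGFs were read beside these levels, and their part in the results was not tested. Of 7 mesenchymal markers 3 reached 1 RPKM, with COL1A1 at 8.29 and 8.30 RPKM, LUM at 3.39 and 3.16 and PDGFRB at 2.06 and 2.22, and with COL3A1, TWIST1, TWIST2 and DCN under 0.5. The summed level of the 7 mesenchymal markers was 14.1 RPKM in each library, with 0.1 entered for each of the 4 under 0.5. Of 4 endothelial markers measured, KDR stood at 1.60 and 1.61 RPKM and CDH5, TEK and VWF were under 0.5. Of 5 pluripotency markers DPPA4 alone was above it, at 1.80 and 1.94 RPKM. Of 5 definitive endoderm markers, CXCR4 (4.03 and 3.98) and SOX17 (2.63 and 3.08) were above 1 RPKM and CER1, EOMES and GSC under 0.5. Of 5 pancreatic and intestinal markers, PDX1 (8.01 and 8.87) and CDX2 (2.13 and 2.11) were above 1 RPKM and PTF1A, NKX6-1 and MUC2 under 0.5.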

How the data were processed

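Poly(A) RNA of day 8 liver progenitors was sequenced in 2 libraries of 1 group, with strand marked by dUTP, per the labels. The values are RPKM, deposited by the authors with 1 column per library. FastQC 0.10.1, STAR 2.3.0e and Cufflinks 2.2.0 are named in the submitters' processing notes, and Sailfish and hg19 in the series description. The tool behind the RPKM values is not given in the sources used here. Genes are labelled as annotated by Ensembl, without a release. In the table no value lay between 0.1 and 0.5.

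Identifiers were joined without version to GENCODE release 44 on GRCh37, and 54428 (95.2%) matched. The background was 19344 protein-coding symbols, each with its identifier of highest mean. Detection meant 1 RPKM or more in both libraries. Of values of single-exon genes under 500 reads, 84.0% in library 1 and 83.8% in library 2 came within 0.02 of a whole read when length was end minus start. Multi-exon genes were left out of the depth and of the variance ratio, and no count model was used. Reads quoted for a gene multiply its RPKM by the canonical transcript length and depth. Libraries were amplified without molecular identifiers, so errors from counting are the least that apply.

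With 1 group and libraries counted as 1 sample, no test was made. The variance calculation was tested on simulated data. The genes and lists were chosen with earlier results of these data known. Named genes are all 47 members, up to 4 highest and 3 lowest of each further list (all of the FGF19 axis, splicing and locus lists), fixed markers, and overlapping genes at 1 RPKM or more. NUDT6, FGF7P3, HS6ST2, genes tied under 0.5 and the promoters shown were chosen after their values were seen. Python 3.11.15 with pandas 2.3.3 and numpy 2.4.6 was used.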

Additional observations from a re-analysis of the deposited data

How the results depend on the processing

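The count of genes at 1 RPKM or more was 23 with either library left out and with identifiers of a symbol summed, and 24 at a limit of 0.5 RPKM. At a limit of 5 RPKM it was 14. Each library was also rescaled to 1 common sum over protein-coding genes outside the mitochondrial genome, which multiplies values by about 5.02. The count was then 24 at 1, the count at 10 or more rose from 8 to 21, and the median was 4.20. Values listed as 0.1 became about 0.503 and could not reach 1, whatever the true level. The count of 24 therefore could not have been higher. The median was 0.801 to 0.870 RPKM with 1 library left out, and 7.12 RPKM when the 23 genes under 0.5 were left out. The mean log2 level was 0.37 with a pseudocount of 0.1 and -0.064 with 0.01, in place of 1.71 with 1, since values listed as 0.1 move most. The other lists, locus neighbours included, held 76 to 78 detected genes with 1 library left out, 84 at a limit of 0.5 and 53 at 5. The ratio of library variance to counting variance was 1.01 at a minimum of 20 mean reads and 1.12 at 100, beside 1.06 at 50. No paired analysis was possible because the series has 1 group. Genes under 0.5 RPKM cannot be ranked.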
